A study of Arabidopsis thaliana with 20 samples.

Results

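The degradome of de-etiolating Arabidopsis seedlings was searched for mRNA ends that lie opposite small RNAs, and 71 siRNAs of 24 nt were recorded at such ends. They were chosen as the siRNAs of the deposited expression table that appear as a 24-nt query in a degradome record whose predicted cut had 5 reads or more. The table holds 4255 siRNAs, so the 71 made up 1.67% of them. For comparison, 91 siRNAs of 20 and 21 nt and 52 siRNAs of 22 and 23 nt had such a record. The 71 siRNAs had 71 distinct sequences and gave 80 sites in 71 genes, and 6 of them were recorded at more than 1 site. Of the 80 sites, 54 lay in 54 genes that the annotation does not class as pseudogenes, which involved 49 siRNAs. The other 26 sites lay in 17 pseudogenes and involved 22 siRNAs. Pseudogene is used here as the class of the annotation, which does not set transposable element genes apart. The authors list transposable elements among the siRNA targets, mostly of gypsy-like and CACTA-like families. Which of the pseudogenes are transposable elements was not tested.

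All seedlings were wild-type Col-0, grown in the dark for 4 d and then given white light. Small RNAs of aerial tissue were sequenced in the dark (W0 h) and after light of increasing length (W1 h, W3 h, then W6 h and lastly W12 h), with 3 replicate libraries per time point, and each library came from a large pool of seedlings. The degradome was sequenced once for light-treated seedlings, as a pool of equal parts of all light times up to W24 h, and once for dark-grown seedlings. Light and dark degradomes therefore have no replicates and are set side by side with no test. Levels are in RPM, the reads of a siRNA scaled to library size, and the unit step of the siRNA values corresponds to 17579785 to 20906003 mapped reads per library from W0 h to W12 h.

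In plants, 24-nt siRNAs are cut by DCL3 from double-stranded RNA that RNA polymerase IV and RDR2 produce, mostly at transposons and other repeats. They are loaded into Argonautes of the AGO4 group, which favor a 5′ adenosine, and they are known for guiding DNA methylation at repeats. Slicing of mRNA is better known from miRNAs and shorter siRNAs loaded into AGO1, and it cuts the target opposite bases 10 and 11 of the guide. Degradome sequencing reads the 5′ ends of uncapped mRNA fragments, and the CleaveLand program lists the ends that lie opposite those bases. Such a record gives a position and a predicted duplex. Whether the paired siRNA made the end was not tested.

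The siRNAs and sites that carry the main results are printed here 5′ to 3′, each siRNA above its site. Capitals mark bases 10 and 11 in a siRNA and the bases on either side of the cut in a site. The siRNA sequences are those of the degradome records, the site positions are on TAIR10.1, and RUP1, AT1G19660, UGD3 and APX1 are shown because their sites had the most reads among the non-pseudogene targets.
SRNA7869687: augaccgauAGaaccaaaccgcau
RUP1 site, chr5:21217830-21217855, plus strand: uggugguuuggucGUguccgggucag
SRNA15263601: gagggagacGGaagagauagaauc
AT1G19660 site, chr1:6802645-6802667, minus strand: gauucuauuuuuuCCucucucuc
SRNA24945576: uuuccgaguGAcugagaauuggcg
UGD3 site, chr5:5028100-5028122, minus strand: agcaagucucagUCgcuugggac
SRNA3230120: accaacuaaGAacggccaugcacc
APX1 site, chr1:2439478-2439500, plus strand: agucauggcuguUUuugguuggg

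The next sets show the closest pairing outside pseudogenes (HR4), a site shared with the miR156 family (SPL15), a site whose share differed between light and dark (AT4G12640), and 2 perfect duplexes on pseudogenes (AT4G06477 and AT1G41726).
SRNA17035978: ggaguacaaGGaaaagguaaaacu
HR4 site, chr3:18734316-18734339, plus strand: gguuuuacccuuuCCuuguacucc
SRNA22210124: ugacagaagAGagugagcacaucu
SPL15 site, chr3:21444834-21444857, minus strand: agcugugcucucuCUcuucuguca
SRNA7545550: auccuacguUCuuccauacucuga
AT4G12640 site, chr4:7465978-7466001, plus strand: ucagaguaugaaGAgccaugggau
SRNA8288131: augugauacCUuuucggaaagccc
AT4G06477 site, chr4:3061337-3061360, minus strand: gggcuuuccgaaaAGguaucacau
SRNA21122202: uccuugugcUCgagugucugguug
AT1G41726 site, chr1:15503715-15503738, plus strand: caaccagacacucGAgcacaagga

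The strongest site belonged to RUP1, a WD40-repeat protein that represses UV-B signaling. In light, 655 of the 6135 degradome reads on RUP1 (10.7%, 95% Wilson interval 9.93% to 11.5%) ended at the site, and in dark 191 of 1294 reads (14.8%, 12.9% to 16.8%) did. The cut lies at position 21217844 of chromosome 5, in the coding sequence of a gene with 1 exon, and it held the most reads of the transcript in both libraries. These intervals cover counting error only. The pairing was loose. The duplex of SRNA7869687 and RUP1 had 5 mismatches, 2 G:U pairs and 2 bulged bases, and base 11 of the siRNA was unpaired. Its pairing score, on which 0 is a perfect duplex and larger values mean more mismatches, was 12.5.

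Several targets act in redox and carbohydrate metabolism. For UGD3, a UDP-glucose dehydrogenase that supplies precursors of cell wall polysaccharides, the site took 203 of 1065 reads (19.1%) in light and 185 of 1529 reads (12.1%) in dark. For APX1, the cytosolic ascorbate peroxidase that removes hydrogen peroxide, it took 193 of 10641 reads (1.81%) in light and 200 of 8251 reads (2.42%) in dark, in the 3′ UTR. The UGD3 duplex scored 9 and the APX1 duplex 5.5, and both sites held the most reads of their transcript.

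GATL3, a putative galacturonosyltransferase, had 45 of 1633 reads (2.76%) at its site in light and 60 of 2542 reads (2.36%) in dark. GGT4, a vacuolar enzyme that degrades glutathione conjugates, had 33 of 1323 reads (2.49%) in light. In dark the same GGT4 position had 17 of 1615 reads (1.05%) and no record of a 24-nt siRNA, while the position next to it had 22 reads and was recorded with a 23-nt query. HEXO3, a beta-hexosaminidase of the plasma membrane, was recorded in light, with 39 of 2221 reads (1.76%). FNR1, the leaf ferredoxin-NADP oxidoreductase of photosynthesis, was recorded in dark, with 33 of 2209 reads (1.49%), and AT2G29290, a Rossmann-fold protein, in light, with 88 of 3172 reads (2.77%). The files give the reads only of transcripts that have a record, so a record in 1 library is not a measured 0 in the other.

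The transcription factor targets SPL15 and SPL10 belong to the SBP family, which the miR156 and miR157 families are known to repress. The SPL15 site took 190 of 350 reads (54.3%, 49.0% to 59.4%) in light, the largest share of a non-pseudogene transcript there. In dark the same position took 130 of 234 reads (55.6%, 49.2% to 61.8%) and was recorded with a 22-nt query. The SPL10 site took 38 of 4227 reads (0.899%) in light and 28 of 3199 reads (0.875%) in dark. The position next to it held 3433 reads in light and 2253 in dark, and was recorded there with 21-nt queries. Both siRNAs share at least 16 nt, the length searched for, with miRNAs of the table, and were the only ones of the 71 to do so. SRNA22210124 shares it with miR156 members and SRNA24346680 with miR157 members. The full length of the shared stretch was not measured, and whether these siRNAs derive from the miRNAs was not tested. Neither siRNA matched TAIR10.1 with fewer than 2 mismatches. No siRNA shared 17 nt with a phasiRNA.

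RNA-handling proteins were also among the targets. LBA1, the UPF1 helicase of nonsense-mediated decay, had 58 of 1671 reads (3.47%) at its site in light and 25 of 1877 reads (1.33%) in dark. AT4G12640, a protein with an RNA recognition motif, had 52 of 321 reads (16.2%) in light and 21 of 451 reads (4.66%) in dark. Both sites lie in coding sequence, that of LBA1 in exon 24 of 29 and that of AT4G12640 in exon 3 of 4.

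The remaining targets of the 20 sites with the most reads had diverse roles. AT1G19660, a wound-responsive family protein, had 158 of 8359 reads (1.89%) in light and 216 of 7192 reads (3.0%) in dark, in the 5′ UTR. Its duplex had no mismatch but 3 G:U pairs and 1 bulged base, and scored 4. AT4G16900, a TIR-NBS-LRR disease resistance protein, had 34 of 677 reads (5.02%) in light and 86 of 1074 reads (8.01%) in dark. MPB2C, a microtubule-associated protein that restricts cell-to-cell transport, had 70 of 1065 reads (6.57%) in light and 48 of 1406 reads (3.41%) in dark.

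Recorded in light only were LEA14, a late embryogenesis abundant protein (86 of 8411 reads, 1.02%), WIH1, a cysteine-rich transmembrane protein (58 of 3551 reads, 1.63%), and ILR2, which affects the response to auxin conjugates (41 of 94 reads, 43.6%). A single siRNA, SRNA20756113, was recorded at 3 genes. On AT4G37409, an uncharacterized protein gene, it met 40 of 90 reads (44.4%) in light and 40 of 68 reads (58.8%) in dark. On AT4G37432, a noncoding transcript antisense to another gene, it met 41 of 578 reads (7.09%) in dark. On TPR14, a likely chaperone partner, it met 6 of 152 reads (3.95%) in light. The target stretches of AT4G37409 and AT4G37432 are identical, and the sequence past them was not compared, so these records may not be independent.

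The other 34 non-pseudogene sites had 5 to 30 reads in the better library, with a median of 12. They include IPK2a, an inositol polyphosphate kinase (30 of 2010 reads in dark), ckl5, a casein kinase I-like protein (28 of 1223 reads in light and 18 of 1360 in dark), DPB2, a DNA polymerase epsilon subunit (13 of 145 in light and 15 of 171 in dark), and WTF9, a splicing factor of mitochondrial introns (23 of 118 in light). They also include the cell cycle factors ATE2F2 (20 of 298 in light) and DPB (12 of 772 in light), and CER7, an exoribonuclease of wax synthesis (6 of 404 in dark). The further members of this set were AT4G03410, AT4G36090, AT3G63220, AT3G23540, AT5G25475, AT3G53850, AT5G15070, AT2G28810, AT5G48730, AT4G27880, AT4G26400, AT5G45095, AT1G25420, AT1G25422, AT3G54410, TET17, AT3G07273, NF-YB7, AT4G24830, AT1G03106, AT2G25355, AT1G56610, AT1G79890, AT2G21550, HR4 and GSL05.

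Among the 54 non-pseudogene sites, 23 were recorded in light only, 14 in dark only and 17 in both. CleaveLand puts a site in category 0 where it alone holds the most reads of its transcript, in category 1 where it is tied for the most, and in category 2 where it lies above the mean of the positions with reads. The light file holds 139 category 2 records of any query, all with a CleaveLand p of 0.0494 against a limit of 0.05, and the dark file holds 0. A category 2 site could thus be recorded in light only, which touches 3 of the 23 sites. By these definitions, the site held the most reads of its transcript, alone or tied, for 37 of 40 sites in light and for 31 of 31 in dark. These counts restate the categories, and the lack of category 2 records fixed the count in dark. Its share of the transcript's reads had a median of 3.88% in light (0.196% to 54.3%) and 4.19% in dark (0.92% to 58.8%). A share of at least 10% was reached by 11 of 40 sites in light and 7 of 31 in dark. Of the 54 sites, 42 lay in coding sequence, 7 in a 3′ UTR, 4 in a 5′ UTR and 1 in a noncoding exon.

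The share at a site was compared between light and dark for the 22 siRNA-site pairs recorded in both libraries. It was higher in light for 12 of them. The 95% Wilson intervals were apart for 7 pairs, with a higher share in light for UGD3, MPB2C, LBA1 and AT4G12640, and a lower share in light for RUP1, AT1G19660 and APX1. The widest ratio was that of AT4G12640, with 16.2% (12.6% to 20.6%) in light and 4.66% (3.07% to 7.01%) in dark. The intervals overlapped for the other 15 pairs, for example DPB2, with 8.97% in light and 8.77% in dark. With 1 library per condition, a difference between light and dark cannot be told apart from one between libraries. The share of pairs with intervals apart was not counted over the records of other queries. The 7 of 22 are therefore not read as a trait of these siRNAs.

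Pairing differed between targets. Over the 54 non-pseudogene sites the pairing score had a median of 8.5 (1.5 to 18.5), and 31 scored above 8. A score of at most 4 was found for 4 of them (7.41%), namely HR4 at 1.5, SPL15 at 2, and AT1G19660 and SPL10 at 4. On non-pseudogene targets the median was 3.5 for 20-nt siRNAs (39 pairs), 2.5 for 21 nt (68 pairs), 3 for 22 nt (30 pairs) and 9 for 23 nt (22 pairs). The ratio of the duplex's free energy to that of a perfect duplex had a median of 0.674 over the 54 sites, with a lowest value of 0.655. A bulge was present in 38 of the 54 duplexes, and bases 10 and 11 were both paired in 41. HR4, a homolog of the RPW8 resistance proteins with the closest pairing outside pseudogenes, had 5 of 1033 reads (0.484%) at its site in light, against 11 reads at its strongest position.

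The 26 pseudogene sites had a median score of 2.5 (0 to 12), and 17 (65.4%) scored at most 4. The categories differed as well, with 13 of the 26 pseudogene sites in category 2, at a median score of 1, against 3 of the 54 other sites. Over categories 0 and 1 the median was 5.5 for 13 pseudogene sites and 8.5 for 51 other sites, and the part of the category in the gap was not tested. All 11 of the 80 sites with a score of at most 1 were on pseudogenes, 7 of them on the single pseudogene AT4G06477. Pseudogenes took 26 of the 80 pairs of 24-nt siRNAs (32.5%), against 4 of 26 pairs of 23 nt (15.4%), 2 of 32 of 22 nt (6.25%), 1 of 69 of 21 nt (1.45%) and 3 of 42 of 20 nt (7.14%). Of the 26 sites, 20 were recorded in light only, 1 in dark only and 5 in both, and 13 of the 20 were of category 2. The pairs are not independent, because several siRNAs met the same pseudogene.

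A single pseudogene, AT4G06477 (chromosome 4, 3060975 to 3065294, minus strand), held 10 of the 26 sites, each met by its own siRNA and all in light. They lie between positions 3825 and 4086 of its transcript. This stretch of 262 nt had reads at 209 positions and took 8561 of the 11059 light reads on the transcript (77.4%). The strongest position, 4010, had 456 reads and no record of a 24-nt siRNA. The 10 sites had 24 to 332 reads each, with SRNA4770560 the highest at 332 (score 4), followed by SRNA14689129 with 131 (score 1), SRNA7881398 with 103 (score 0.5), SRNA8145530 with 53 (score 1), SRNA5588482 with 44 (score 1), SRNA24975580 with 42 (score 2) and SRNA4363923 with 39 (score 0.5). All 10 were of category 2. The mean over the transcript's positions with reads was 22.6, just under the lowest site at 24 reads. Without AT4G06477, the other 16 pseudogene sites in 16 genes had a median score of 5, and 7 scored at most 4. The gene had no record of any query in dark, where no category 2 record exists.

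The siRNAs that met AT4G06477 matched the genome at many places. With up to 2 mismatches they matched 84 to 505 places of TAIR10.1 each (median 395), against a median of 6 places (1 to 152) for the 49 siRNAs with non-pseudogene targets. Among the other pseudogene sites, AT1G37340 had 52 of 166 reads (31.3%) in light and 44 of 146 reads (30.1%) in dark, with SRNA8142022 at a score of 2. SRNA22983846 met 3 pseudogenes in light with a score of 8 at each. It had 47 of 248 reads on AT3G60930, 40 of 119 on AT5G28430 and 38 of 119 on AT4G06603, whose target stretches are identical. The last was named after its values were seen, as the remaining site of that siRNA. AT1G41726, a perfect duplex, had 5 of 25 reads in light and 5 of 16 in dark.

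The genome positions of the siRNAs give their possible sources. Of the 71, 68 matched TAIR10.1 perfectly, 29 at a single place and 25 at more than 5. A best match lay antisense to the siRNA's own target gene for 5 siRNAs. Of these, 2 met AT4G06477, 1 met AT1G41726, and the SPL15 and SPL10 siRNAs matched with 2 mismatches. Equally good matches lay in miRNA genes, at 3 of the 4 best places of the SPL15 siRNA and 1 of the 2 of the SPL10 siRNA. Among the 49 siRNAs with non-pseudogene targets, 26 had a best match in an annotated pseudogene and 24 a best match outside annotated genes. SRNA3230120, recorded on APX1, and SRNA906968, recorded on the pseudogene AT5G32408, matched only ribosomal RNA genes, on the antisense strand. SRNA17917194, recorded on DPB and on the argininosuccinate synthase gene AT4G24830, matched 14 places perfectly, each in a transfer RNA gene. SRNA8495680, recorded on GGT4, matched at a single place (chr4:14398170-14398193), antisense to the neighboring gene AT4G29200.

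The first base was adenosine in 43 of the 71 siRNAs (60.6%), guanosine in 14, uridine in 11 and cytidine in 3. The share among 24-nt siRNAs without a record was not counted, so this is not read as a trait of those with one. Adenosine led in both target classes, with 13 of the 22 siRNAs on pseudogenes and 30 of the 49 on other genes. Among siRNAs with a record, uridine led at 20 nt (24 of 34), 21 nt (35 of 57) and 22 nt (21 of 27), and adenosine and uridine were close at 23 nt (9 and 8 of 25). The targets held none of the 23 silencing genes listed for this comparison, which include AGO1, AGO4, DCL3 and RDR2, and none of 14 light signaling genes, which include HY5, COP1 and the phytochromes PHYA and PHYB. The lists are short and hold neither RUP1 nor LBA1, so nothing is read from these counts.

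The siRNA levels have 3 features that bear on every change over time. To begin with, the values of replicate 1 at W1 h and at W3 h correspond to the same read counts. All 3618 siRNAs above 0 in both libraries, and all 57 of the 71 that were, had equal counts, whereas no other pair of the 15 libraries was equal for more than 8.05% of its siRNAs. These columns thus hold 1 set of counts, and which time point it belongs to is unknown. Further, zeros came in all 3 replicates of a time point at once, and every siRNA above 0 had at least 15 reads summed over the replicates. A listed 0 is therefore not a count in a single library. Lastly, replicate 3 was made with another library kit than replicates 1 and 2. Over the 71 siRNAs at W0 h, the correlation of log2 levels across siRNAs was 0.923 between replicates 1 and 2 and 0.445 between replicates 1 and 3, and 23 siRNAs differed more than 4-fold between replicate 3 and the mean of the others. Over all 4255 siRNAs the correlations were 0.937 and 0.424, and 1400 siRNAs differed that much, so this is not particular to the 71.

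The 71 siRNAs were rare. Their mean level from W0 h to W12 h had a median of 0.737 RPM (0.0623 to 10 RPM), beside 0.758 RPM for all 4255 siRNAs. The median was 3.08 RPM for the 91 siRNAs of 20 and 21 nt with a record and 0.952 RPM for the 52 of 22 and 23 nt. For the siRNAs on pseudogenes, the median was 0.181 RPM at W12 h, with 11 of 22 listed at 0, and 0.588 RPM at W0 h, with 4 listed at 0. For the siRNAs on other genes it was 0.583 RPM at W12 h and 0.91 RPM at W0 h. The medians over all 4255 siRNAs were 0.59 RPM at W12 h and 0.805 RPM at W0 h.

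The most abundant siRNA, SRNA4493483, was recorded on AT2G25355, which encodes a PNAS-3-like protein, with 6 of 111 reads in light. It had 2.26, 1.14 and 24.7 RPM in replicates 1, 2 and 3 at W0 h, 2.78, 1.6 and 24.8 RPM at W1 h, 3.0, 2.06 and 25.8 RPM at W3 h, 1.88, 1.18 and 25.0 RPM at W6 h, and 1.65, 1.22 and 31.6 RPM at W12 h. Replicate 3 was the highest at every time point. Over replicates 1 and 2 its mean was 1.88 RPM and it ranked at place 14 of the 71. The transfer RNA-matching SRNA17917194 had 5.62, 6.03 and 3.68 RPM at W0 h, 9.01, 6.47 and 3.06 RPM at W1 h, 9.74, 10 and 5.26 RPM at W3 h, 11.6, 11.8 and 6.17 RPM at W6 h, and 7.53, 9.08 and 9.56 RPM at W12 h. It was higher than at W0 h in all 3 replicates at W12 h.

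The RUP1 siRNA, SRNA7869687, had 7.22, 9.78 and 1.76 RPM at W0 h, 6.02, 6.13 and 1.21 RPM at W1 h, 6.51, 5.81 and 2.01 RPM at W3 h, 5.44, 5.31 and 1.7 RPM at W6 h, and 3.68, 3.67 and 1.54 RPM at W12 h. Each replicate was lower at W12 h than at W0 h. The GGT4 siRNA, SRNA8495680, had 5.88, 6.48 and 0.284 RPM at W12 h and 8.82, 9.67 and 0.567 RPM at W0 h. It was lowest in replicate 3 and, like the RUP1 siRNA, lower at W12 h in each replicate. Most siRNAs had a log2 change below 0 at W12 h, 2358 of the 2855 above 0 in all 15 libraries. The log2 change at W12 h was -0.84 for the RUP1 siRNA and -0.65 for the GGT4 siRNA. With each library rescaled to a median siRNA ratio of 0, these values were -0.35 and -0.15.

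The next in mean level were SRNA4977731 (AT5G45095, 5.12 RPM), SRNA6063884 (AT1G56610, 4.73 RPM), SRNA17382479 (AT3G54410, 3.96 RPM), SRNA18462938 (AT4G06477, 2.86 RPM), SRNA8105427 (AT3G07273, 2.63 RPM) and SRNA7994867 (AT4G03410, 2.27 RPM). Several of these ranks also came from replicate 3. Over replicates 1 and 2 the means were 0.604 RPM for SRNA6063884, 0.816 RPM for SRNA17382479, 0.78 RPM for SRNA7994867 and 2.56 RPM for SRNA4977731, against 13, 10.3, 5.26 and 10.2 RPM in replicate 3. SRNA8495680, SRNA17917194 and SRNA7869687 were the highest over replicates 1 and 2. Some siRNAs at strong sites were near the floor of the table. The UGD3 siRNA, SRNA24945576, had 0.386, 0.163 and 0.454 RPM at W0 h, 0.524, 0.276 and 0.211 at W1 h and 0.254, 0.322 and 0.411 at W6 h, and was listed at 0 at W3 h and W12 h. The LEA14 siRNA, SRNA4758723, was listed only at W1 h (0.314, 0.497 and 0.0528 RPM) and W3 h (0.34, 0.515 and 0.335 RPM).

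Of the 71 siRNAs, 44 (62%) were above 0 in all 15 libraries and could be tested, 33 with non-pseudogene targets only and 11 with pseudogene targets. Of the other 27, 12 were listed at 0 at 1 time point, 4 at 2, 6 at 3 and 5 at 4. Over all 4255 siRNAs, 2855 (67.1%) were above 0 in all 15 libraries. A 0 was listed at 1 time point for 682 of the 4255, at 2 for 352, at 3 for 222 and at 4 for 137. At W12 h, 21 of the 71 (29.6%) were listed at 0, against 10 (14.1%) at W0 h. Over all 4255 siRNAs these numbers were 935 (22%) at W12 h and 440 (10.3%) at W0 h. The SPL10 siRNA, SRNA24346680, was listed only at W12 h, with 0.385, 0.159 and 1.76 RPM.

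None of the 44 tested siRNAs changed at any time point against W0 h (limma on log2 of RPM plus 0.1, Benjamini-Hochberg adjusted p below 0.05 over all 2855 siRNAs tested). Over all 2855, the share called was 0% at W1 h and W3 h. The W6 h share was 0.21%, with 0.175% higher and 0.035% lower, and 5.36% at W12 h, with 1.44% (41) higher and 3.92% (112) lower. With each library rescaled to a median siRNA ratio of 0, the split at W12 h was 91 higher and 8 lower. Without replicate 1 of W1 h and of W3 h, none of the 44 passed at any time, and 49 of the 2855 (1.72%) did at W12 h, 27 higher and 22 lower. At an unadjusted p below 0.05, 1 of the 44 passed at each of the first 3 light time points, against 81, 90 and 221 of the 2855, and 10 of the 44 passed at W12 h, against 830 of the 2855. edgeR and DESeq2 on the recovered reads called none at the first 2 light time points, and called 1 siRNA, SRNA17917194, at both later ones. Over all 2855, edgeR called 0.806% and DESeq2 0.946% at W6 h, and both called 3.47% at W12 h. A p above the threshold does not show that the levels were the same.

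The median log2 change of the 44 siRNAs at W1 h was -0.08, beside -0.08 over all 2855. It was 0.03 beside 0.01 at W3 h, -0.07 beside -0.14 for W6 h, and -0.44 beside -0.45 for W12 h. Without replicate 1 of W1 h and of W3 h, it was -0.17 beside -0.17 at W1 h and -0.07 beside -0.08 at W3 h. At W12 h, 39 of the 44 and 2358 of the 2855 lay below 0. The W12 h median over all 2855 depended on the libraries, at -0.67 without replicate 3 and -0.28 without replicate 1. Whether this general fall came from the siRNAs or from the scaling was not tested. The RUP1 siRNA had a log2 change of -0.84 ± 0.27 (SE, n = 3, limma adjusted p = 0.0677) at W12 h. The siRNA on the pseudogene AT2G06390, SRNA24037552, had the lowest adjusted p, with -0.98 ± 0.28 (SE, n = 3, limma adjusted p = 0.0513). The most negative value was that of SRNA12272336 on NF-YB7, a subunit of a CCAAT-binding factor, at -1.22 ± 0.44 (SE, n = 3, limma adjusted p = 0.0915).

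SRNA17917194 had the highest log2 change of the 44 at W12 h, 0.78 ± 0.29 (SE, n = 3, limma adjusted p = 0.0972). With the rescaled libraries, its change was 1.28 (limma adjusted p = 0.00194), and edgeR, which also scales on the siRNAs, gave 1.24 (edgeR adjusted p = 0.00243). It also passed at W12 h when siRNAs with zeros were fitted too (limma adjusted p = 0.0454), and at W6 h without replicate 3 (limma adjusted p = 0.0238). SRNA24975580 on AT4G06477 followed at 0.49, and the other 3 siRNAs not below 0 lay between 0.00 and 0.08. Leaving out replicate 3 gave 12 lower siRNAs of the 44 at W12 h, among them those of RUP1, LBA1, GGT4, NF-YB7 and DPB2, and 0 higher. Over all 2855 siRNAs it gave 872 lower and 65 higher, 32.8% in either direction. Leaving out replicate 1 or replicate 2 gave none of the 44.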

How the data were processed

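The authors deposited small RNA levels as RPM, in a table headed TPM, and mapped reads with Bowtie 1.0.0 to TAIR10 per the labels. All siRNA values were whole multiples of the value of 1 read within 0.05 (100% of values), which gave the recovered reads. The degradome values are of another kind: the authors deposited CleaveLand records as text, with the reads at every position of each transcript (version 4.3 in the headers, p at most 0.05, category at most 2). No sample column was left unused for want of a label (0 columns). W24 h was not used here, because 1570 siRNAs were at 0 in only some of its replicates, unlike at the other time points, and 2 values were blank.

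Records with 5 or more reads at the site and a 24-nt siRNA query were joined to RefSeq genes of TAIR10.1 with Python 3.11.15, and each site was placed by finding the record's own target sequence there (1 site, on AT2G07711, could not be placed). Genes of the biotypes pseudogene and transcribed pseudogene were counted as pseudogenes and all others as non-pseudogene. Transposable element genes were not counted as a class of their own. In the files, every category 2 position lay above the mean of the positions with reads and no category 3 position did. siRNAs were searched in the genome with up to 2 mismatches. Shares have 95% Wilson intervals.

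Levels were fitted with limma 3.58.1 in R 4.3.3 on log2(RPM + 0.1), with the replicate as a term and Benjamini-Hochberg adjustment at 0.05, over the 2855 siRNAs above 0 in all 15 libraries. A change on this scale understates that of low siRNAs. Same-numbered libraries deviated together (median correlation 0.851, 0.867 and 0.949 for replicates 1, 2 and 3; lowest 0.823), so the replicate numbers were taken to pair the samples. edgeR 4.0.16 and DESeq2 1.42.0 were run on recovered reads. The fits were tested on simulated data. The replicates are described by the authors as biological.

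Named in full were the 20 non-pseudogene sites with the most reads, the 10 pseudogene sites with the most reads with their reads, the 10 siRNAs with the highest mean level and siRNAs past the threshold. The members, lists and tests were chosen with earlier results of these data known.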

Additional observations from a re-analysis of the deposited data

How the results depend on the processing

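The numbers of siRNAs and sites depended on the record filters. Without a minimum of reads there were 113 siRNAs and 126 sites, at a CleaveLand p of at most 0.01 there were 28 siRNAs and 29 sites, and 22 siRNAs with 22 sites were recorded in both libraries. The other 5 filters kept both numbers within 1.5 times. The numbers of siRNAs past the threshold were 0 in the fit reported at each time. Without the replicate block (no replicate block) they were also 0 at each time, and over all siRNAs 0 at W12 h, against 153 with the replicate as a paired term. With listed zeros taken as values 7 siRNAs passed at W1 h, 10 siRNAs at W3 h, 13 siRNAs at W6 h and 19 siRNAs at W12 h, most of them listed at 0 at W0 h or at the time compared, and over all 4255 siRNAs the shares were 12.7%, 12.2%, 15% and 31.4%. Rescaled libraries, edgeR and DESeq2 each gave 1 at W6 h and 1 at W12 h, and a pseudocount of 1 RPM or a minimum mean of 1 RPM gave 2 at W12 h. Over all siRNAs the W12 h shares were 3.47% for each of the first 3, 7.22% with that pseudocount and 12.7% with that minimum, which left 22 of the 44 siRNAs to test. Leaving out 1 replicate in turn gave 0 to 0 at W1 h and W3 h, 0 to 1 at W6 h and 0 to 12 at W12 h, both maxima without replicate 3. Without the libraries of replicate 1 at W1 h and W3 h, an alternative chosen after seeing the data, no siRNA passed at any time.

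Some changes at W12 h turned in sign with the setting. SRNA4977731, at -0.35 in the fit reported, was at 0.14 (rescaled), 0.05 (edgeR) and 0.04 (DESeq2). SRNA6063884, at -0.09, was at 0.34 (rescaled) and 0.19 (edgeR and DESeq2). SRNA18462938, at -0.10, was at 0.39 (rescaled), 0.45 (edgeR) and 0.48 (DESeq2), SRNA8105427, at -0.46, at 0.03 (rescaled), and SRNA4493483, at 0.00, at -0.17 to 0.22 and SRNA6063884 at -0.16 to 0.02 over the replicates left out. The cause of these turns in sign was not tested. Sites with 5 reads, 8 records in light and 3 in dark, lie at the limit of the filter.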
